A study of Mus musculus with 8 samples.

Results

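The 8 genes Upp2, Dpyd, Dpys, Upb1, Xdh, Uox, Pnp and Gda, which encode enzymes that break down pyrimidine and purine bases and nucleosides, were followed in mouse liver over 2 circadian days. They were taken by name, through RefSeq and Vega transcript identifiers, from 24142 named genes, and all 8 were found. The libraries came from livers of wild-type C57/BL6 mice kept in constant darkness for a day after a week of alternating 12 h of light and 12 h of dark. One library of polyadenylated RNA was made from a pool of 3 animals at each of 8 circadian times (CT, hours of the internal day), 6 h apart from CT23 to CT65. Every animal had the same genotype and treatment, and sex and age are not given. No time had a replicate library, so each value below is 1 pool, and each clock phase was met on both days: the subjective day in CT29 and CT53, its end in CT35 and CT59, the subjective night in CT41 and CT65, and its end in CT23 and CT47.

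Uridine phosphorylase splits uridine into uracil and ribose 1-phosphate, and Upp2 encodes the form of it that is abundant in liver. Uracil and thymine are then broken down by 3 enzymes in turn, the dehydrogenase encoded by Dpyd, the ring-opening dihydropyrimidinase of Dpys, and the ureidopropionase of Upb1, which releases beta-alanine or its methylated relative. On the purine side, Pnp splits inosine and guanosine into base and sugar phosphate, Gda deaminates guanine to xanthine, Xdh oxidises hypoxanthine and xanthine to uric acid, and Uox, a gene that humans have lost as a working enzyme, oxidises uric acid further in mouse liver.

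Upp2 has a far upstream and a downstream start, and the reads of these libraries fell at the downstream one. In the mm9 coordinates of the files, the first exon of the upstream start (chr2:58419798-58419939) held 0 to 1.17 RPKM (reads scaled by feature length and library depth) in the 8 libraries. At the downstream start, the listed first exons end at chr2:58607833 and begin at 58607353, 58607591 or 58607596. In that order, they held 16.8 to 181, 33.2 to 359 and 33.9 to 367 RPKM. An exon listed for a transcript of the upstream start has the same end and begins at 58607769. It held 95.7 to 1242 RPKM, above the first exons in every library. The reads were thus densest in bases that transcripts of both starts list, and where the RNA begins within the first exon was not tested. No junction with at least 5 reads in all joined the upstream exon to the body of the gene. RefSeq lists a window of 300 bases for both starts in GRCm38.p6 (250 before the start and 50 after it). For the downstream start, on the plus strand with its first base at chr2:58755184, 3 stretches are shown because they hold the matches found there, with the matched letters in capitals.
receptor motif at -188: aataaggctgggAGGTCAcacctgtcctac
receptor motif at -160: acgttgggaccaAGGTCAcatgccctggac
TATA box at -29: agttggcctgcgTATAAAaggccatccagg
They lie at chr2:58754984-58755013, chr2:58755012-58755041 and chr2:58755143-58755172, and positions count back from the first base. The letters searched on both strands were AGGTCA (a motif bound by nuclear receptors such as the REV-ERB and ROR families), TATAAA of the TATA box, CACGTG (the E-box bound by CLOCK and BMAL1) and TTATGTAA or TTACGTAA (the D-box bound by DBP, TEF and HLF). Matches did not overlap. Of 32851 windows of this length, 16.3% held AGGTCA, 13.6% TATAAA, 7.15% CACGTG and 1.06% a D-box. The window of the upstream Upp2 start held none of these letters. RefSeq windows were listed for 6 of the 8 genes, and those of Dpyd, Upb1, Uox, Pnp and Gda held none either. A match is a run of letters in these windows and was not tested as a binding site.

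The depth of the libraries was even apart from CT35. A value of 1 RPKM stood for 1 read per kilobase in 11.7 to 13.9 M reads (M, mega) in 7 libraries and in 22.9 M in CT35, and 6.52 to 7.57 M reads against 14.4 M fell in the named genes. Hepatocyte markers (6 of 6 detected) summed to 43331 to 71505 RPKM with the highest sum in CT35. Sums for markers of 6 other cell types were between 3.42 RPKM for cholangiocytes in CT29 and 101 RPKM for erythroid cells in CT35. Of the 3 intestinal genes, Lct and Vil1 were at 0 in 7 and 3 libraries, whereas Fabp2 was at 6.50 to 14.7 RPKM. In bulk tissue, fewer cells of a type and less RNA per cell cannot be told apart.

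Upp2 was the member with a 24-h component past the test. It was low at the end of the subjective night and about 5-fold higher 12 h later, on both days. Its RPKM was 75.1 at CT23, 102.2 at CT29, 391.5 at CT35, 177.0 at CT41, 85.6 at CT47, 200.9 at CT53, 448.9 at CT59 and 150.3 at CT65, from 918 to 8411 reads. Both libraries from the end of the subjective day lay above the other 6, and both from the end of the subjective night lay below them. In a 24-h cosine and sine curve fitted to log2(RPKM + 0.5), the peak-to-trough fold was 5.23 (log2 2.39, SE 0.32), with the peak at CT 11.30 h (SE 0.51 h) and a limma adjusted p of 0.00859 over all genes (edgeR on recovered reads, 0.00143). Of 10854 genes tested, 200 were called at an adjusted p under 0.05, which is 1.84%, and 1 of the 8 members was. The call was lost without the CT59 library (adjusted p 0.0653, log2 2.20), and stood without CT35 (adjusted p 0.0134, log2 2.36). It was also lost with no filter on reads (adjusted p 0.0837), and over 20 alternatives the adjusted p ran from 8.7e-13 to 0.0837.

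**Figure D1:**
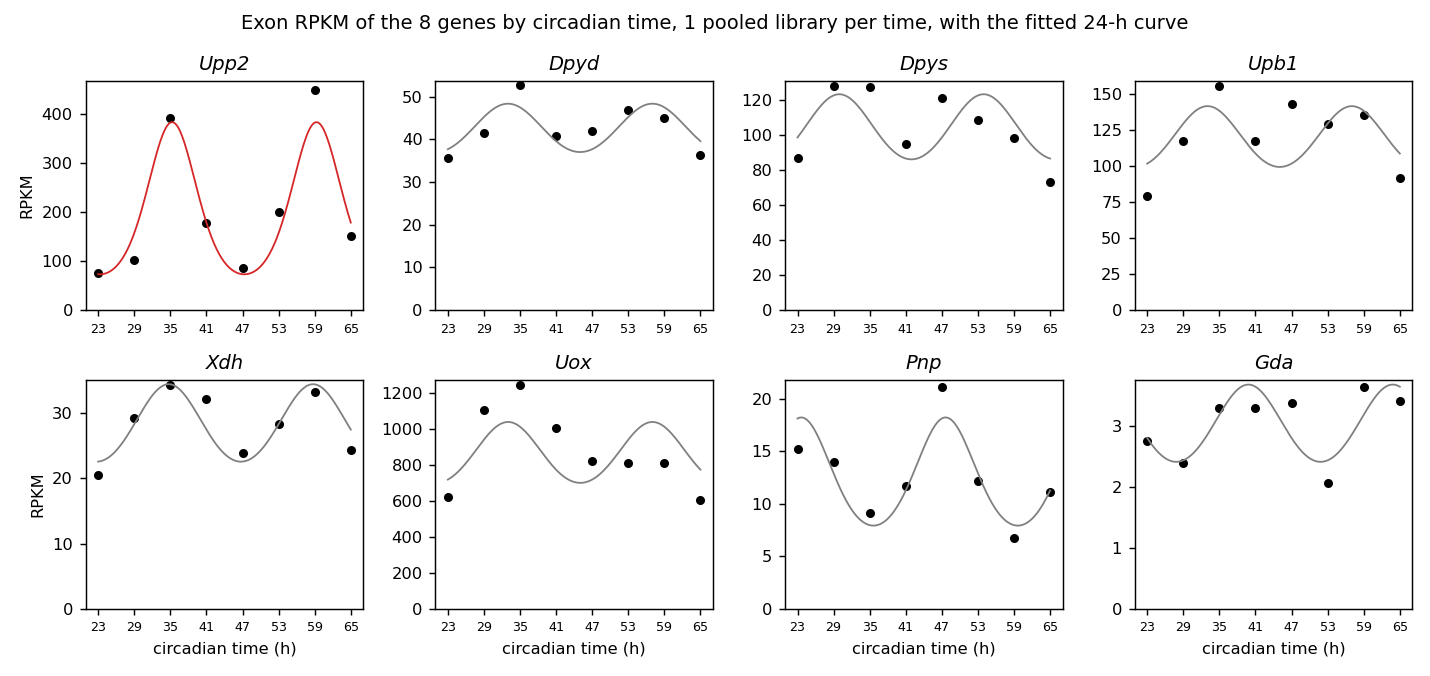
Exon RPKM of each gene (vertical axis, from 0) against circadian time (horizontal axis, hours); each point is 1 library of 3 pooled animals and each line the fitted 24-h curve, red where the adjusted p was under 0.05. Upp2 peaks at CT35 and CT59 with 391.5 and 448.9 RPKM, and Pnp is lowest at the same times.

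The enzymes downstream of Upp2 in pyrimidine breakdown had much smaller fitted amplitudes. Dpyd ran from 35.7 RPKM at CT23 to 52.8 at CT35, with 41.4, 40.8, 41.9, 46.8, 45.0 and 36.4 at CT29, CT41, CT47, CT53, CT59 and CT65. Its fitted fold was 1.30 (log2 0.38, SE 0.23, limma adjusted p 0.631). Dpys ran from 72.9 RPKM at CT65 to 127.9 at CT29, with a fitted fold of 1.43 (log2 0.52, SE 0.26, adjusted p 0.552 by limma). Upb1 ran from 79.5 RPKM at CT23 to 155.5 at CT35, with a fitted fold of 1.42 (log2 0.51, SE 0.29, adjusted p 0.612 by limma). For Dpys the 2 libraries of the end of the subjective night were 86.6 and 121.1 RPKM, and for Upb1 they were 79.5 and 143.7 RPKM. None of the 3 passed the test, which does not show that they were constant.

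Among the purine enzymes, Pnp had the largest fitted fold and an opposite order of libraries to Upp2. Its RPKM was 15.2 at CT23, 14.0 at CT29, 9.16 at CT35, 11.7 at CT41, 21.1 at CT47, 12.2 at CT53, 6.73 at CT59 and 11.1 at CT65. In these values, the lower of the 2 deposited, the 2 libraries at the end of the subjective day were the lowest. The 2 at the end of the subjective night were the highest. The fitted fold was 2.22 (log2 1.15, SE 0.24) with the peak at CT 23.62 h (SE 0.81 h), and the limma adjusted p was 0.0722, above the threshold. On the reads recovered from the values, edgeR gave an adjusted p of 0.0262 and DESeq2 0.00045 for the same 24-h terms, where edgeR called 276 of 10854 genes (2.54%) and DESeq2 573 of 10854 (5.28%). When each gene was represented by its transcript with most reads, which for Pnp differs by 1 base, limma gave an adjusted p of 0.0352, and 348 of 11482 genes (3.03%) were called. Over 20 alternatives the adjusted p of Pnp ran from 0.00045 to 0.311, and its fitted peak from CT 23.16 h to CT 23.87 h. The upper deposited value of Pnp exceeded the lower by 54.8%, against at most 0.42% for the other 7 genes, and the share of its reads that a near-identical copy such as Pnp2 could hold was not tested. By the upper value, Pnp was at 17.3 RPKM at CT35 and 16.6 at CT65, so CT35 was not among the lowest 2. The limma adjusted p of Pnp was then 0.180.

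Xdh, Uox and Gda did not pass the test. Xdh RPKM was 20.6, 29.4, 34.3, 32.2, 23.9, 28.4, 33.3 and 24.4 from CT23 to CT65, with a fitted fold of 1.52 (log2 0.60, SE 0.23) at CT 10.73 h (SE 1.46 h) and a limma adjusted p of 0.380. Both libraries from the end of the subjective night were below both from the end of the subjective day. Uox, the most abundant of the 8 per length, was 617.6 RPKM at CT23, 1105 at CT29, 1240 at CT35, 1006 at CT41, 817.9 at CT47, 811.7 at CT53, 809.1 at CT59 and 602.8 at CT65. Its first day held the 3 highest values and its second day was nearly level until CT65, and the fitted fold was 1.48 (log2 0.57, SE 0.31, limma adjusted p 0.586). Gda, the weakest, ran from 2.06 RPKM at CT53 to 3.63 at CT59, with 139 to 408 reads a library and a fitted fold of 1.44 (log2 0.52, SE 0.22, limma adjusted p 0.459).

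**Figure D2:**
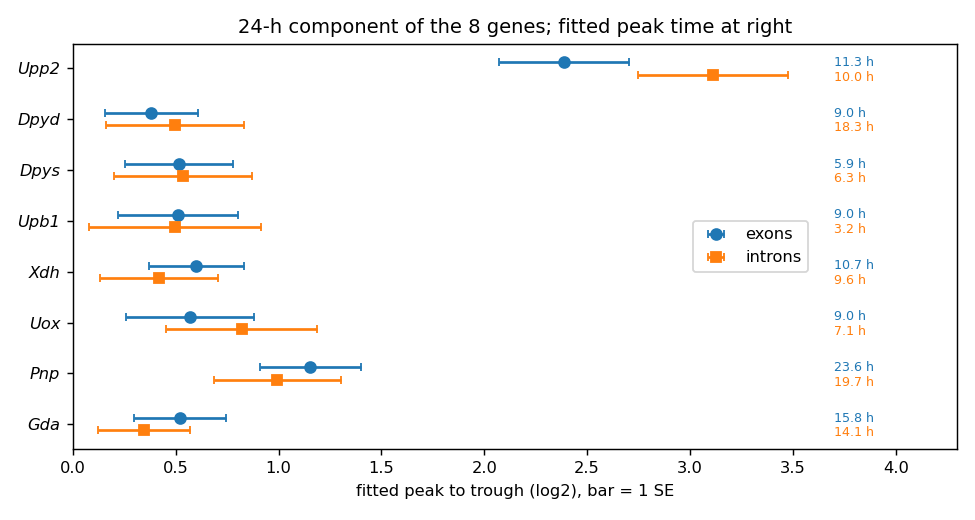
Fitted peak-to-trough size on the log2 scale (horizontal axis, bars 1 SE) for the exons (blue) and the introns (orange) of each gene, with the fitted peak time at right. Upp2 lies at 2.39 for exons and 3.11 for introns, Pnp at 1.15 and 0.99, and the other 6 genes under 0.9.

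The members' median fitted fold was 1.46, against 1.32 for all genes tested, and 2 of 8 had an unadjusted p under 0.05 against 1622 of 10854. As a description over the 8 libraries, the log2 values of Xdh followed those of Upp2 with a Pearson correlation of 0.83, Dpyd with 0.73, Upb1 with 0.57, Uox with 0.39, Gda with 0.32 and Dpys with 0.11, while Pnp had -0.91. These share the libraries and their depth.

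Ranked by mean RPKM of the transcript chosen, the genes were Uox, Upp2, Upb1, Dpys, Dpyd, Xdh, Pnp and Gda, with means of 876.2, 203.9, 121.4, 104.6, 42.6, 28.3, 12.6 and 3.02 RPKM. The libraries of Upp2, Upb1 and Dpys overlapped in level, and so did those of Xdh and Pnp (20.6 RPKM at the lowest against 21.1 at the highest). Uox, Dpyd and Gda did not overlap with their neighbours in that order. The chosen transcript was the one with the largest summed value, and for Uox, Upb1, Dpys and Upp2 that is a short Vega model of 448, 520, 438 and 939 bases. In the transcripts with most reads, of 2737, 3042, 2468 and 2498 bases, the means were 250.8, 45.9, 46.6 and 124.6 RPKM, so that the levels depended on the model. Uox and Upp2 then overlapped (172.7 RPKM at the lowest against 277.4 at the highest). Dpyd, at 35.3 to 52.2 RPKM, then lay within the ranges of Dpys (31.7 to 59.1) and Upb1 (30.7 to 59.1). In those transcripts the fitted fold of Upp2 was 4.86 at CT 11.04 h (limma adjusted p 0.00129) and that of Uox was 1.58 (limma adjusted p 0.397).

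Reads within introns, taken here as a measure of RNA not yet spliced, showed a larger Upp2 rhythm than its exons. Upp2 intron RPKM was 1.03 at CT23, 5.90 at CT29, 8.82 at CT35, 3.84 at CT41, 1.02 at CT47, 6.19 at CT53, 8.37 at CT59 and 3.20 at CT65. In this mean, weighted by intron length, the lowest 2 libraries were again CT23 and CT47, and the highest 2 CT35 and CT59. Levels differed between introns, from 1.36 RPKM in intron 2 to 16.4 in intron 1 at CT35. CT35 and CT59 were the highest 2 in introns 1, 2, 3 and 5. In intron 4, CT35 was at 1.98 RPKM, below CT59 at 8.51, CT53 at 3.97, CT41 at 3.23 and CT65 at 2.68. The fitted intron fold was 8.64 (log2 3.11, SE 0.37) with the peak at CT 10.03 h (SE 0.45 h) and a limma adjusted p of 0.000383. In the transcripts with most reads it was 8.51 at CT 10.03 h with a limma adjusted p of 3.3e-05. Over all genes, 152 of 8565 (1.77%) were called for introns, and 225 of 9715 (2.32%) in the transcripts with most reads. At CT29 and CT53, Upp2 introns were already at 5.90 and 6.19 RPKM while its exons were at 102.2 and 200.9 RPKM, and at CT41 and CT65 introns were at 3.84 and 3.20 with exons at 177.0 and 150.3. The exon to intron ratio, which tests the difference between both curves directly, did not pass: its fold was 2.22 with a limma adjusted p of 0.810. None of 7919 genes passed that ratio test (0%, with 500 at an unadjusted p under 0.05), nor of 9109 (0%, with 591) in the transcripts with most reads, and no other tool was run on it. The smallest unadjusted p among the members was that of Pnp, 0.0609 and, in the transcripts with most reads, 0.0447.

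**Figure D3:**
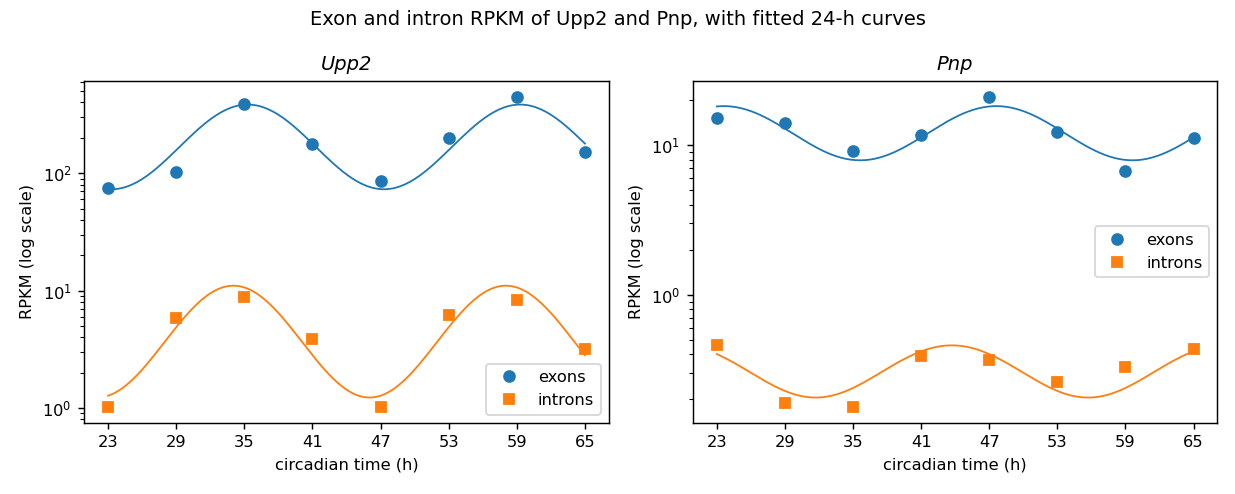
Exon (blue circles) and intron (orange squares) RPKM of Upp2 and Pnp on a log axis against circadian time in hours, with the fitted 24-h curves. The Upp2 intron values are at 5.90 and 6.19 RPKM at CT29 and CT53, before the exon peaks at CT35 and CT59.

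No other member's introns passed the test. Pnp introns had a fitted fold of 1.99 at CT 19.70 h (SE 1.18 h, limma adjusted p 0.271), from 14 to 37 reads a library. Uox introns had a fold of 1.76 at CT 7.09 h (limma adjusted p 0.623), and the folds of Dpys, Upb1, Dpyd, Xdh and Gda were 1.45, 1.41, 1.41, 1.34 and 1.27. The chosen transcripts of Dpys and Upb1 have only 2 introns and 1 intron. In the transcripts with most reads, with 9 introns each, their folds were 1.06 and 1.08. With only introns that hold no listed exon, the Dpys fold was 1.14. Dpys intron 2 overlaps a listed exon of another transcript and held 6.90 to 14.9 RPKM, against 0.374 to 0.566 RPKM in intron 1. The CT35 library had the lowest intron RPKM of the 8 in Dpyd (0.130), Upb1 (2.94), Pnp (0.177) and Gda (0.0247). It had the highest in Upp2 (8.82, against 8.37 in CT59). In the transcripts with most reads, Upp2 introns were instead highest in CT59 (6.76, against 6.59 in CT35), and CT35 was also lowest in Dpys (0.733). When only introns without listed exons were taken, CT35 was lowest in Xdh too (0.406).

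The introns of Dpyd, which spans chr3:118265096-119135836 on the plus strand, were compared between the 5′ and 3′ parts of the gene. This comparison was chosen after the values were seen, and it did not pass its test. Introns 1 to 11 (380536 bases) were at 0.219, 0.213, 0.160, 0.319, 0.255, 0.200, 0.399 and 0.403 RPKM from CT23 to CT65. Introns 12 to 22 (485768 bases) were at 0.288, 0.182, 0.106, 0.205, 0.248, 0.191, 0.328 and 0.270 RPKM. Introns 3, 5, 6 and 10 overlap listed exons of other transcripts and none of introns 12 to 22 does, so exon reads may enter the first set only. The log2 ratio of the 5′ to the 3′ introns was -0.39 at CT23, 0.23 at CT29, 0.59 at CT35, 0.64 at CT41, 0.04 at CT47, 0.07 at CT53, 0.28 at CT59 and 0.58 at CT65, so the 5′ introns were the lower ones at CT23. The fitted peak was CT 16.5 h for the first set and CT 20.8 h for the second. The log2 ratio of both sets followed a 24-h curve with an exact permutation p of 0.0730 over the 8 libraries, or 0.219 adjusted over 3 such tests, and the smallest p this design allows is 0.00317. Among the 8 introns of at least 10000 bases in the first set, 7 peaked between CT 14.6 h and CT 19.3 h and intron 10 at CT 0.78 h, with a share of variance explained of 0.015. The 8 such introns in the second set peaked between CT 17.2 h and CT 22.9 h.

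**Figure D4:**
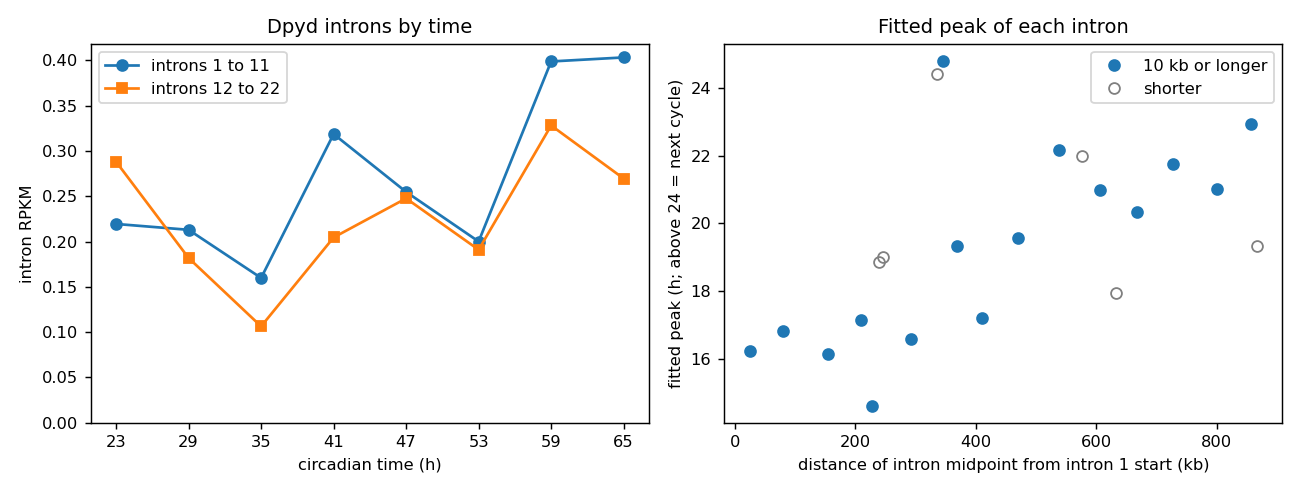
Left, RPKM of Dpyd introns 1 to 11 and 12 to 22 against circadian time in hours; right, the fitted peak of each intron against the distance of its midpoint from the start of intron 1 in kb, open circles for introns under 10000 bases. Introns 1 to 11 are highest at CT59 and CT65 (0.399 and 0.403 RPKM), introns 12 to 22 at CT59 and CT23 (0.328 and 0.288 RPKM).

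The splice junction reads were highest per depth at CT35 and CT59 in all 6 Upp2 junctions tested. They come from the same libraries and may be among the reads of the exon values, so they are not separate evidence of the Upp2 rhythm. Of 32781 junctions tested with edgeR, 163 were called (0.497%), and among 96 junctions of the 8 genes the 4 called were all in Upp2, out of its 6 tested. The 6 had fitted log2 sizes of 1.72 to 2.72 and peaks between CT 10.95 h and CT 12.04 h. The junction of the first exon (chr2:58607834-58616085) had 63, 113, 1221, 113, 71, 123, 298 and 102 reads from CT23 to CT65, which per M reads of depth is 4.84, 9.39, 53.4, 9.66, 5.51, 9.89, 25.3 and 7.35 (edgeR adjusted p 0.00931). This depth is that of the RPKM values, 22.9 M in CT35 and 11.7 to 13.9 M in the others. CT35 held 14749911 junction reads against 5270743 to 6227130, more for its depth than any other library, so this scaling raises CT35. The edgeR test used TMM scaling of junction reads instead. The junction before the last exon (chr2:58632560-58642439) had 143, 271, 1197, 254, 179, 169, 572 and 208 reads, with an edgeR adjusted p of 0.0662. No call was left without the CT23 library, and 2 were left without CT59. In Xdh 34 junctions were tested, in Dpyd 22, in Dpys 10, in Upb1 9, in Uox 8, in Pnp 4 and in Gda 3, and their median log2 sizes ran from 0.33 in Upb1 and Gda to 1.16 in Pnp.

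The balance between the ends of Upp2 differed in 1 library. The mean RPKM of its 5′ exons over that of its 3′ exons was 0.876 in CT35 and 0.296 to 0.448 in the other 7 libraries. The median of this ratio over 4644 genes was 1.02 in CT35 and 0.830 to 0.953 in the others, and the other 7 members had CT35 values of 0.789 to 5.44, of which the Dpys value, 1.03, was the highest of its 8. The Upp2 exon of chr2:58616086-58616203 was at 1052 RPKM in CT35 and 600.1 in CT59, and the exon of chr2:58632413-58632559 at 1347 and 2037. Both libraries were above the other 6 in both exons. Whether depth or RNA quality took part in this was not tested.

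**Figure D5:**
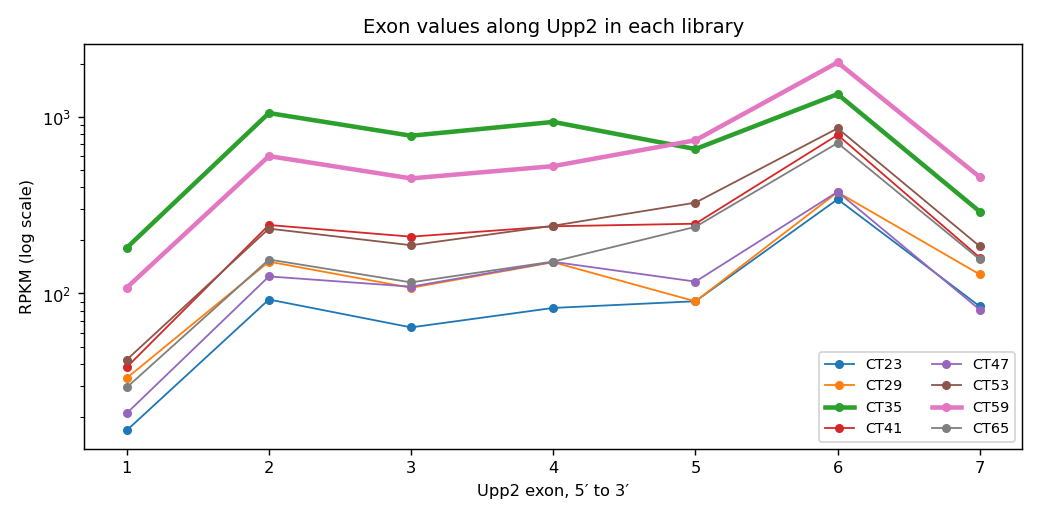
RPKM (log axis) of the 7 Upp2 exons that tested junctions join, in 5′ to 3′ order, with 1 line per library. CT35 (thick green) lies above CT59 (thick pink) over the first 4 exons and below it over the last 3.

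Where splice junctions of Upp2 competed with a junction of the main form, the main form held most of the reads in every library. Junctions that share 1 end formed 11 pairs with at least 20 reads each. Skipping of the exon at chr2:58623832-58623990 took 25 reads against 2151 for its inclusion from the same donor, a share of 1.15% (exact 95% interval 0.745 to 1.69%). An acceptor at 58621987, in no listed transcript, took 79 reads or 3.54% (2.82 to 4.40%), with shares of 1.61, 10.6, 3.06, 4.97, 3.95, 2.03, 3.53 and 5.66% from CT23 to CT65. The last exon had a listed alternative that begins at 58644189, with 70 reads against 2993, or 2.29% (1.79 to 2.88%). From the same donor, 2 unlisted acceptors at 58642067 and 58638978 took 46 reads (1.51%) and 28 reads (0.927%). Beyond these acceptors lie unlisted donors, at 58642154 with 20 reads (0.664%) and at 58639091 with 6 reads. Both donors join to the main last exon, so the 2 acceptors were not shown to replace it. Intervals cover counting error only, and these reads come from amplified libraries.

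No pair had a share that passed the test of a 24-h curve. The smallest exact permutation p was 0.0508, or 0.524 adjusted over the 11 pairs, for the acceptor at 58642067 against the alternative last exon, and the smallest p allowed is 0.00635 for that pair, which has tied values, and 0.00317 for the others. The alternative last exon took 2.72, 1.09, 2.60, 1.93, 3.76, 0.587, 1.38 and 4.59% from CT23 to CT65, on 1 to 32 reads a library (exact permutation p 0.0952, adjusted 0.524). Without the CT29 library, the acceptor at 58642067 against the main last exon reached an adjusted exact permutation p of 0.0349, and over 9 alternatives the smallest adjusted p of any pair ran from that value to 0.964. With 1 to 23 reads a library for that acceptor, shares this small were not distinguishable between most times.

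Neither a 12-h component nor a difference between days was detected. Sampling every 6 h allowed a single 12-h term, a cosine with its origin at CT23. A 12-h rhythm that crosses its mean at the sampled times could not be seen. The 12-h term was called in 0 of 10854 genes by limma (0%, with 866 at an unadjusted p under 0.05), and the smallest unadjusted p of a member was 0.180, for Gda. The second day against the first, with clock phase as a block, was called in 0 of 10854 genes by limma (0%, with 257 at an unadjusted p under 0.05). The largest member difference was that of Uox, which was lower on the second day by a log2 difference of -0.35 (SE 0.22, unadjusted p 0.141). No other tool was run on either.

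None of the genes listed around the pathway passed the 24-h test in the transcripts chosen, where 1.84% of all genes did. The pyrimidine list (synthesis, salvage and breakdown beyond the members) had 28 of 33 genes tested and 0 called, with 5 at an unadjusted p under 0.05 and a median fold of 1.35. The purine list had 24 of 33 tested and 0 called, with 1 at an unadjusted p under 0.05 and a median fold of 1.27. The list of molybdenum cofactor genes and aldehyde oxidases, which use the same cofactor as Xdh, had 8 of 11 tested and 0 called, with 2 at an unadjusted p under 0.05 and a median fold of 1.35. The nucleoside and urate transporters had 10 of 17 tested and 0 called, with 3 at an unadjusted p under 0.05 and a median fold of 1.33. By edgeR, which called 2.54% of all genes, 1 pyrimidine and 1 transport gene were called, Cda and Slc17a3. In the transcripts with most reads, where limma called 3.03% of all genes, 1 pyrimidine and 1 transport gene were called, Tymp and Slc17a3.

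Of the most abundant genes of each list, Aox3 had the largest fitted fold. Abat, the transaminase that takes up beta-alanine, averaged 109.7 RPKM with a fold of 1.25, Aldh6a1 69.8 with 1.17 and Entpd5 59.1 with 1.31. Urah, which acts on the product of Uox, averaged 234.9 RPKM with a fold of 1.17, Paics 88.5 with 1.24 and the adenosine kinase gene Adk 71.8 with 1.18. The aldehyde oxidase Aox3 averaged 123.8 RPKM with a fold of 2.52 (log2 SE 0.48, limma adjusted p 0.341), Suox 53.5 with 1.72 and Mocs1 52.9 with 1.26. Among transporters, the nucleoside carrier Slc29a1 averaged 64.9 RPKM with a fold of 1.62, Slc17a2 37.5 with 1.16 and Slc23a1 32.0 with 1.38.

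Upp1, the other uridine phosphorylase gene, averaged 0.875 RPKM and had too few reads to be tested, against 203.9 RPKM for Upp2. Of 3 genes chosen after their values were seen, Tymp, the thymidine phosphorylase gene, was 60.3, 39.5, 16.0, 41.9, 42.7, 44.3, 23.2 and 32.2 RPKM from CT23 to CT65. It was lowest at CT35 and CT59, as Pnp was by the lower deposited value. The fold of Tymp was 2.61 at CT 23.51 h (adjusted p 0.0799 by limma, 0.0621 by edgeR and 0.0457 by limma in the transcripts with most reads). Cda, whose enzyme makes uridine from cytidine, had a fold of 2.34 at CT 21.26 h with adjusted p 0.0640 by limma, 0.0474 by edgeR and 0.0575 by limma in the transcripts with most reads. Slc17a3, an organic anion transporter gene, had a fold of 2.34 with adjusted p 0.0684 by limma, 0.0349 by edgeR and 0.0338 by limma in the transcripts with most reads.

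Against clock genes in the same libraries, the Upp2 exon peak at CT 11.30 h fell between that of Dbp (CT 9.30 h, SE 0.27 h) and that of Per2 (CT 14.70 h, SE 0.41 h). Nr1d1 peaked at CT 6.65 h (SE 0.44 h) and Arntl, which encodes BMAL1, at CT 21.63 h (SE 0.37 h). Of 5946 genes with a mean of at least 5 RPKM, those most like Upp2 over the 8 libraries were Ciart, Pcsk4, Mat1a, Noct and Tef, with Pearson correlations of 0.986, 0.976, 0.973, 0.967 and 0.965 of log2 values. Ciart, a repressor of the clock, had a fold of 22.99 at CT 10.97 h, and Tef, which binds D-boxes, 5.93 at CT 10.91 h. Mat1a, the liver enzyme of S-adenosylmethionine synthesis, had 1.57 (limma adjusted p 0.310), so likeness in shape covered very different amplitudes.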

How the data were processed

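Coordinates of the 8 mouse liver libraries (1 pool per circadian time) are in mm9, the build named in the submitters' processing notes. The deposited transcript tables give a lower and an upper value per transcript, exon and intron, named only min and max per the file headers. They scale as RPKM: lower values gave whole reads within 0.1 read in 99.998 to 100.0% of those checked per library, and these were the recovered reads. The deposited junction tables hold read counts and name RUM, per the file headers. The quantifying program and the strand setting were not given in the sources used here.

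Of 115699 transcripts, 79705 were named through RefSeq or Vega identifiers matched to GRCm38 tables. The transcript with the largest summed lower value stood for each gene. Genes with at least 20 reads in at least 2 libraries were fitted on log2(RPKM + 0.5), or + 0.05 for introns, with limma 3.58.1 (mean trend, robust) in R 4.3.3, with 5 residual degrees of freedom for 24 h and 3 for days. P-values were Benjamini-Hochberg adjusted over all features and measure the spread of single pools around the curve, not between animals. Sequencing lane and time cannot be told apart. Junction counts were tested with edgeR 4.0.16 (TMM), and DESeq2 1.42.0 was an alternative. Upp2 junction shares, as log2((reads + 0.5)/(reads + 0.5)), were tested by permuting the 8 libraries exactly (scipy 1.17.1). The fits were tested on simulated data. The members, lists and tests were chosen with earlier results of these data known. Named were the 8 members, up to 4 called and 3 most abundant uncalled genes per list, the 5 genes most like Upp2, 4 clock genes and all competing Upp2 junctions. The alternatives changed the pseudocount, read filter, scaling, deposited value, transcript, tool and library set.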

Additional observations from a re-analysis of the deposited data

Results flagged for a closer look

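Spliced reads in no listed transcript and in no comparison above were found within 4 of the genes, where junctions with at least 20 reads over the 8 libraries were kept. Upp2 had 98 reads across chr2:58607674-58607768, inside its first exon, of which 66 were in CT35, against 0 to 10 in the other libraries. Dpyd had 95 reads across chr3:118484916-118485881, 33 across chr3:118485933-118500265 and 23 across chr3:118702304-118720219, the first with 6 to 19 reads in every library. Xdh had 80 reads across chr17:74238751-74240450, of which 46 were in CT35, and 25 across chr17:74235860-74236188, of which 17 were in CT35. Uox had 40 reads across chr3:146290849-146290998, 34 across chr3:146273031-146273233, 31 across chr3:146260214-146273233 and 30 across chr3:146275364-146275438. CT35 held 14749911 junction reads against 5270743 to 6227130 in the others.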

How the results depend on the processing

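The number of members with a 24-h call was 1 and became 0 with no read filter, and 2 with at least 100 reads, with edgeR, with DESeq2, with array weights and in the transcript with most reads, an alternative chosen after seeing the data, in each case by adding Pnp. Over all genes, calls went from 200 to 25 with no read filter, and to 271, 276, 573, 704 and 348 in the other 5, in that order. Leaving out each library gave 0 to 1. The number of junction calls was 4, and 0 to 5 when each library was left out, and the number of Upp2 junction pairs called was 0, and 0 to 1. The causes were not tested. Of 160 member values of the 24-h component, 153 kept their direction and side of the threshold, 2 (Upp2) fell below it and 5 (Pnp) passed it. All 104 intron values, 80 ratio values, 72 values of the 12-h term and 72 of the day difference stayed on their side of the threshold, with no member's 12-h or day value called under any of them. The sign of these uncalled values changed in 10 of 72 for the 12-h term and 13 of 72 for the day difference. Without each library in turn, the 12-h log2 difference ran from -0.21 to 0.16 in Uox, -0.15 to 0.081 in Pnp, -0.15 to 0.044 in Xdh, -0.0065 to 0.23 in Dpys and -0.075 to 0.35 in Upb1. The day difference ran from -0.071 to 0.080 in Dpyd, -0.14 to 0.27 in Upb1, -0.0026 to 0.14 in Gda, -0.23 to 0.066 in Pnp and -0.16 to 0.040 in Xdh, and was -0.019 in Dpyd with TMM rescaling. The Dpys exon to intron ratio, log2 0.053 at CT 22.67 h, was 0.37 at CT 6.74 h in the transcript with most reads. No paired analysis was possible because each time had 1 library, other than the comparison of days, which kept clock phase as a block. Reads were fewest for Gda exons (139 in a library) and Pnp introns (14).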
